A study of Mus musculus with 7 samples.

Results

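The G1 cyclins, their kinases CDK4 and CDK6, and the RB family of pocket proteins were followed through 7 mouse Group 3 (G3) medulloblastomas. They were taken by gene name from the deposited count table, as the rows for Ccnd1, Ccnd2, Ccnd3, Cdk4, Cdk6, Ccne1, Ccne2, Rb1, Rbl1 and Rbl2, which are 10 of the 34592 genes in it. The study compared tumors grown from G3 tumorspheres with or without enforced expression of WDR11, a WD40-repeat protein of a trans-Golgi vesicle-tethering complex. The 7 libraries were bulk RNA-seq libraries of tumor chunks, 3 from control tumors and 4 from tumors labelled as WDR11 overexpression (WDR11OE).

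Both groups came from 1 tumorsphere line, # 19568, raised from early postnatal cerebellar granule neuron progenitors of Trp53-/-; Cdkn2c-/- mice that carried a Myc-IRES-GFP retrovirus. The spheres were infected with the lentivirus pCDH-EF1-MCS-T2A-copGFP, an empty vector, or with pCDH-EF1-WDR11-T2A-copGFP, in which the EF1 promoter drives the cDNA. Infected cells were not sorted before they were placed in the cortices of young adult CD1-nu/nu mice, and tumors were taken when the mice were moribund. The sample labels give the control treatment as none, whereas the protocol names the empty vector. Forced Myc and the loss of Trp53 and Cdkn2c were therefore shared by all 7 tumors, and each tumor was a mixture of tumor cells and host tissue. The library names of the 2 groups belong to separate numbered series, so library batch and group cannot be told apart.

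In textbook outline, mitogens raise D-type cyclins, which bind CDK4 or CDK6 and start the phosphorylation of RB1 and its relatives p107 (Rbl1) and p130 (Rbl2). Pocket proteins without phosphate hold E2F factors in check. Their release lets E2F switch on Ccne1 and Ccne2, and cyclin E with CDK2 completes the phosphorylation and carries the cell into S phase. D cyclins are well known in the cerebellum, where Ccnd1 and Ccnd2 serve the expansion of granule neuron progenitors, and CDK6 and cyclin D genes are recurrent targets of gain in human medulloblastoma.

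Libraries held between 32116095 and 87141305 counts, and 17389 genes passed the filter on low counts, including all 10 of these genes. The row for human WDR11 held 73, 92 and 102 counts in the 3 control tumors and 185, 169, 99 and 57 in the 4 tumors labelled WDR11OE. In counts per 1000000 of the TMM-scaled library (CPM) this was 2.03, 2.19 and 3.13 against 4.38, 2.11, 3.05 and 0.624, so the groups overlapped and the row did not separate them (log2 fold change 0.05 ± 0.576 SE, adjusted p = 0.961 by edgeR). Mouse Wdr11 lay at 58.3 to 59.3 CPM in controls and 61.0 to 68.9 CPM in the labelled tumors, without overlap, and did not pass the test (log2 fold change 0.16 ± 0.0619, edgeR adjusted p = 0.0910). These counts therefore give no check of the group label in either direction. The paper reports higher WDR11 transcript by qRT-PCR in tumors of this line, and WDR11 protein in spheres grown from such tumors. It does not state that these were the sequenced tumors, and those measures were not analysed here. Every direction below is that of the libraries labelled WDR11OE against the control libraries.

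Among the 10 genes, Ccnd2 was lower and Cdk4 and Ccne2 were higher in the tumors labelled WDR11OE at an adjusted p below 0.05, and 7 did not pass the test. Of all genes tested, 15.8% were lower, 18.1% were higher and 33.9% were called either way by the same rule, so 1 of 10 lower and 2 of 10 higher are shares near the background. Fold changes were read on the log2 scale as WDR11OE-labelled minus control, with standard errors from edgeR's quasi-likelihood fit. Ccnd2 alone also met the stricter rule of a change of at least 2-fold at an average log2 CPM above 0, which 3.43% of all genes met downward and 2.38% upward. The groups did not overlap for 4 of the 10, with Ccnd2 and Ccnd3 lower and Cdk4 and Ccne2 higher, against 42.7% of all genes tested (19.1% lower and 23.5% higher). The median log2 fold change of the 10 was -0.19, beside 0.08 over all genes tested.

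**Figure D1:**
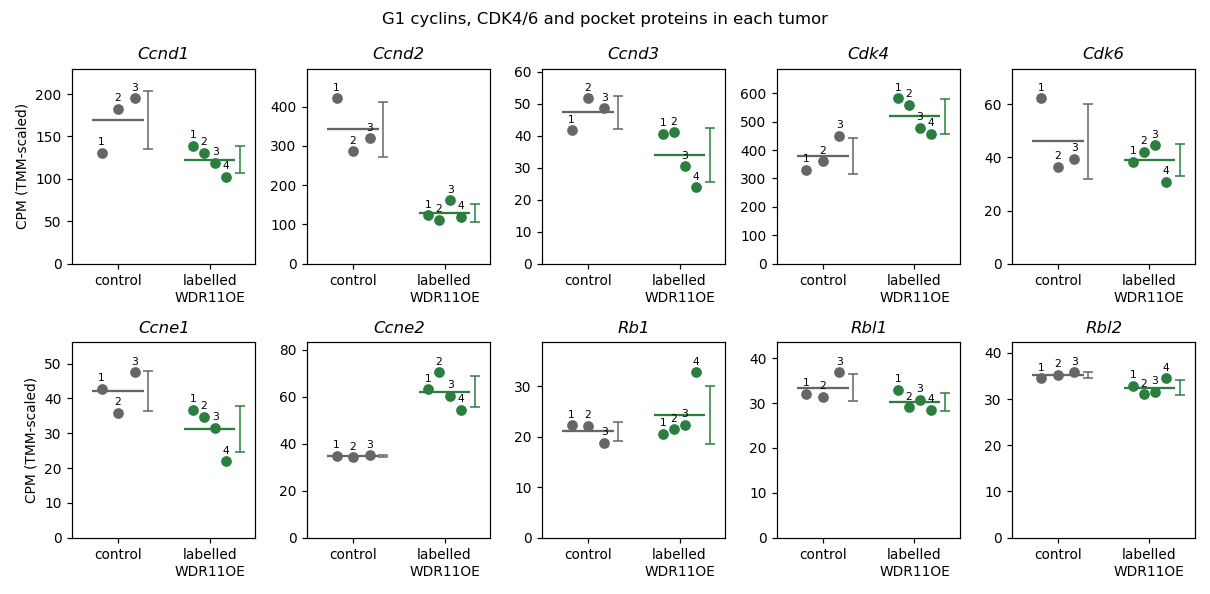
Level of each of the 10 genes in every tumor, in TMM-scaled CPM on axes that start at 0. Grey points are the 3 control tumors and green points the 4 tumors labelled WDR11OE, with tumor numbers above them, the group mean as a line and 1 SD as a bar. The labelled tumors lie wholly below the controls for Ccnd2 (112 to 162 against 286 to 421 CPM) and wholly above them for Ccne2 (54.6 to 70.5 against 34.3 to 35.1 CPM).

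Promoter sequence is shown for 3 of the genes, because Cdk4 was called higher and its promoter is dense in a word that MYC-family factors bind, with Cdk6 as its partner kinase and Rbl1 as the one matched gene with an E2F word. The letters are the 250 bases before the transcription start in the RefSeq annotation of GRCm38.p6, read 5′ to 3′ on the gene's strand, with CACGTG in capitals for the kinases and TTTCGCGC in capitals for Rbl1. RefSeq entries were matched for 6 of the 10 genes (Ccnd3, Ccne1, Cdk4, Cdk6, Rbl1 and Rbl2), and not for the called genes Ccnd2 and Ccne2. The Cdk4 window is chr10:127063285-127063534 on the plus strand, the Cdk6 window chr5:3343643-3343892 on the plus strand, and the Rbl1 window chr2:157204535-157204784 on the minus strand.
Cdk4: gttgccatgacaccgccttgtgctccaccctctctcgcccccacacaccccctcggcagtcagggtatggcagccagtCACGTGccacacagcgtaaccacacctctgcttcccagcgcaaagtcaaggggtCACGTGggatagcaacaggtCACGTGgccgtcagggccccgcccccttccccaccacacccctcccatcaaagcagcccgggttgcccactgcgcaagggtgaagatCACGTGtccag
Cdk6: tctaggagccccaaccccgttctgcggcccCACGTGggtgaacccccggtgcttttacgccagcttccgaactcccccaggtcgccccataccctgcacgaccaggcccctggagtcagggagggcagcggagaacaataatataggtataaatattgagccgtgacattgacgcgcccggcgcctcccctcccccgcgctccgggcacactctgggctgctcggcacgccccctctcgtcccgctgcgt
Rbl1: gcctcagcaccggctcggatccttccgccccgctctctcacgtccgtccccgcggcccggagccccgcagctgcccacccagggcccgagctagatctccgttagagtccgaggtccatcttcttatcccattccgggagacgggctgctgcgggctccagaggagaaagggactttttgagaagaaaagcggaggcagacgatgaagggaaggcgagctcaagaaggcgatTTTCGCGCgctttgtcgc

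The E-box CACGTG, which reads the same on both strands, occurred 4 times in the Cdk4 window, with first bases 172, 118, 98 and 11 bases before the start. It occurred once in the Cdk6 window, 220 bases before the start, and not in the windows of Ccnd3, Ccne1, Rbl1 or Rbl2. Of 32851 RefSeq promoter windows of the same length, 6.02% held at least 1 CACGTG and 7 windows, or 0.0213%, held 4 or more. Other words were searched on both strands. An E2F word (TTTCCCGC, TTTGGCGC, TTTCGCGC or TTTGCCGC) was found in 1.86% of all windows and among these genes in that of Rbl1, 18 bases before the start. A TCF/LEF word (CTTTGAT or CTTTGAA) was found in 7.48% of all windows and in that of Cdk4, and a cell cycle homology word (TTTGAA or TTCGAA, of which the first lies within CTTTGAA) in 17.1% and in that of Rbl2. These matches are a description of letters, and binding was not measured. Cdk4 was picked after its call and its words were seen, and the limit of 4 is its own count. The share of 0.0213% is therefore not a test, and a link between the words and the call was not tested.

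Of the D cyclins, the regulatory partners that carry mitogen signals to CDK4 and CDK6, Ccnd2 (mm9 chr6:127075797-127101066, minus strand) showed the large difference. It measured 421, 286 and 319 CPM in the control tumors and 123, 112, 162 and 119 CPM in the labelled tumors. Every labelled tumor was below every control, and the highest of them, tumor 3, was well below the lowest control, tumor 2. This gave a log2 fold change of -1.41 ± 0.173 (95% interval -1.82 to -1.003, edgeR adjusted p = 0.00151, exact two-sided permutation p = 0.0286, the smallest that 35 splits of 7 tumors can give). Ccnd2 ranked 733 among 17389 genes by p. In bulk tumor, fewer cells that make a transcript and less transcript per cell cannot be told apart.

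Ccnd1 (chr7:152115836-152125774, minus strand), a D cyclin that hedgehog signalling induces in granule neuron progenitors, measured 131, 183 and 195 CPM in controls and 139, 131, 119 and 102 CPM in the labelled tumors. The groups overlapped because control tumor 1 sat among the labelled tumors, and the other controls were above all of them. The log2 fold change of -0.46 ± 0.161 (95% interval -0.84 to -0.09) did not pass the test (edgeR adjusted p = 0.0618). Without control tumor 1 it was -0.62 and passed (edgeR adjusted p = 0.0165). It also passed with DESeq2 (adjusted p = 0.0220) and with scaling by library size alone (edgeR adjusted p = 0.0420).

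Ccnd3 (chr17:47642000-47736632, plus strand), the third D cyclin, measured 41.6, 51.6 and 48.5 CPM in controls and 40.5, 41.0, 30.4 and 23.8 CPM in the labelled tumors. The groups were apart by less than 1 CPM at their nearest points, and labelled tumors 1 and 2 were close to control tumor 1. The log2 fold change of -0.48 ± 0.197 (95% interval -0.94 to -0.02) did not pass the test (edgeR adjusted p = 0.104). Ccnd3 has the highest exon GC content of the 10 genes, 59.6%, and with a trend on GC content removed from each tumor its log2 fold change was -0.15 (edgeR adjusted p = 0.623). Ccnd3-ps, by its name a pseudogene of Ccnd3 with which reads could be shared, has its own row with 7 to 31 counts per tumor.

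Levels of different genes were compared only per length, as RPKM, which is CPM divided by the length of the exon union in kilobases. Summed over the 3 D cyclins, the level was 126, 121 and 128 RPKM in controls and 75.9, 71.9, 72.8 and 58.1 RPKM in the labelled tumors, or 125 ± 3.97 (SD, n = 3) against 69.7 ± 7.90 (SD, n = 4). The controls thus held a nearly constant sum while its parts varied, with control tumor 1 highest in Ccnd2 and lowest in Ccnd1 and Ccnd3. Ccnd2 made up 47.9% ± 9.22 of the sum in controls and 32.6% ± 5.67 in the labelled tumors. Ccnd1 made up 35.3% and 46.0%. The leading D cyclin per length was thus Ccnd2 in the control mean (60.0 RPKM beside 44.2 for Ccnd1). In the labelled mean it was Ccnd1 (32.03 RPKM beside 22.6 for Ccnd2). The lead of Ccnd2 was wide in control tumor 1 (73.8 against 34.0 RPKM). It was small in control tumors 2 (50.1 against 47.6 RPKM) and 3 (56.0 against 50.8 RPKM). The lead of Ccnd1 held in every labelled tumor but was small in labelled tumor 3 (31.0 against 28.3 RPKM).

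Whether the D cyclins moved by different folds was asked with log2 ratios within each tumor, which need no scaling between libraries. The Ccnd2/Ccnd1 ratio did not overlap between groups (log2 difference -0.95, exact permutation p = 0.0286, 0.114 after Benjamini-Hochberg adjustment over 8 pairs). For Ccnd2/Ccnd3 the difference was -0.90 (exact permutation p = 0.0571, adjusted 0.152). Ccnd3/Ccnd1 differed by -0.05 (exact permutation p = 0.743, adjusted 0.800). None of the 8 pairs passed the adjustment. The exact permutation test can give no p below 0.0286 with these tumors, the value that Ccnd2/Ccnd1 reached. The adjustment therefore left little room to pass, and its outcome does not decide whether the D cyclins moved by different folds.

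**Figure D2:**
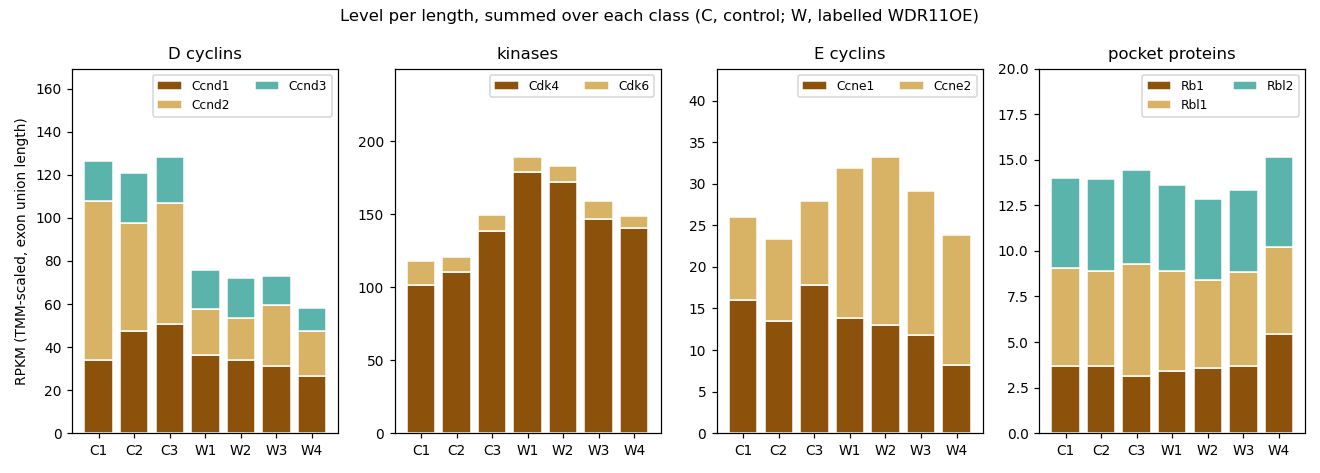
Level per length (RPKM, stacked bars from 0) of the D cyclins, the kinases, the E cyclins and the pocket proteins in each tumor, C1 to C3 being controls and W1 to W4 tumors labelled WDR11OE. The D cyclin bars are at 121 to 128 RPKM in controls and 58.1 to 75.9 RPKM in the labelled tumors, and Cdk4 takes most of every kinase bar.

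Cdk4 (chr10:126500590-126504976, plus strand), the kinase partner of D cyclins, measured 329.5, 360 and 451 CPM in controls and 582, 559, 478 and 457 CPM in the labelled tumors. The groups did not overlap, but labelled tumor 4 was only slightly above control tumor 3. Cdk4 was called higher at a log2 fold change of 0.45 ± 0.143 (95% interval 0.11 to 0.78, edgeR adjusted p = 0.0464, exact permutation p = 0.0286). This call sat at the edge of the threshold and held in 10 of 20 alternative fits, over which the log2 fold change ran from 0.35 to 0.59. Leaving out a tumor ended it for control tumor 1 (adjusted p = 0.142 by edgeR), control tumor 2 (0.142) and labelled tumors 1 (0.199), 2 (0.185) and 3 (0.0661).

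Cdk6 (chr5:3343893-3523218, plus strand), the second D cyclin kinase, measured 62.1, 36.4 and 39.5 CPM in controls and 38.4, 42.1, 44.5 and 30.8 CPM in the labelled tumors. Control tumor 1 stood apart from all others, and the remaining 6 tumors overlapped. The log2 fold change was -0.24 ± 0.210 (95% interval -0.73 to 0.25, edgeR adjusted p = 0.426), and without control tumor 1 it was 0.03 (edgeR adjusted p = 0.890). Per length, Cdk4 was the main kinase in all tumors, with 117 RPKM against 12.3 for Cdk6 in the control mean and 160 against 10.4 in the labelled mean. The Cdk6/Cdk4 log2 ratio differed by -0.67 (exact permutation p = 0.0857, adjusted 0.171 over 8 pairs).

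Of the E cyclins, which partner CDK2 and whose genes are themselves E2F targets, Ccne2 was called higher and Ccne1 did not pass the test. Ccne2 (chr4:11118498-11131926, plus strand) measured 34.9, 34.3 and 35.1 CPM in controls and 63.2, 70.5, 60.5 and 54.6 CPM in the labelled tumors. The controls were almost equal, and each labelled tumor was far above them. The change was 0.84 ± 0.0929 on the log2 scale (95% interval 0.62 to 1.06, edgeR adjusted p = 0.00119, exact permutation p = 0.0286). Ccne2 has the lowest exon GC content of the 10 genes, 37.6% beside a median of 49.8% over the genes tested, and with a trend on GC content removed from each tumor its log2 fold change was 0.34 (edgeR adjusted p = 0.107).

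Ccne1 (chr7:38883003-38892553, minus strand) measured 42.8, 35.9 and 47.5 CPM in controls and 36.8, 34.8, 31.5 and 21.9 CPM in the labelled tumors. Labelled tumor 1 lay just above control tumor 2, and the rest were below the controls. The log2 fold change of -0.43 ± 0.186 (95% interval -0.87 to 0.01) did not pass the test (edgeR adjusted p = 0.118). The Ccne2/Ccne1 log2 ratio differed by 1.28 and did not overlap between groups (exact permutation p = 0.0286, adjusted 0.114 over 8 pairs). Per length, Ccne2 made up 38.8% ± 3.10 of the E cyclin sum in controls (SD, n = 3) and 60.6% ± 3.68 in the labelled tumors (SD, n = 4), while the sum itself was 25.7 and 29.5 RPKM.

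The pocket proteins, which bind E2F and are inactivated by the cyclin-dependent kinases, had no member called. Rb1 (chr14:73583480-73725629, minus strand) measured 22.2, 22.1 and 18.8 CPM in controls and 20.5, 21.4, 22.3 and 32.7 CPM in the labelled tumors. Only labelled tumor 4 was outside the range of the others. For Rb1 the log2 fold change was 0.21 ± 0.180 (95% interval -0.22 to 0.63, edgeR adjusted p = 0.429) and was 0.02 without that tumor.

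Rbl1 (chr2:156971629-157030270, minus strand), the E2F-inducible p107, ran from 31.4 to 36.9 CPM in controls and from 28.5 to 32.97 CPM in the labelled tumors. Rbl2 (chr8:93593956-93647743, plus strand), the p130 of resting cells, ran from 34.5 to 35.8 and from 31.1 to 34.5 CPM. The log2 fold changes were -0.14 ± 0.0900 (95% interval -0.35 to 0.07, edgeR adjusted p = 0.274) for Rbl1 and -0.12 ± 0.0670 (95% interval -0.27 to 0.04, edgeR adjusted p = 0.234) for Rbl2. With the GC trend removed both were called lower, at -0.45 (edgeR adjusted p = 0.0185) and -0.28 (0.0181), and Rbl2 also passed with DESeq2 (-0.16, adjusted p = 0.0493). Summed per length, the 3 pocket proteins were at 14.1 ± 0.259 RPKM in controls (SD, n = 3) and 13.8 ± 0.985 RPKM in the labelled tumors (SD, n = 4).

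**Figure D3:**
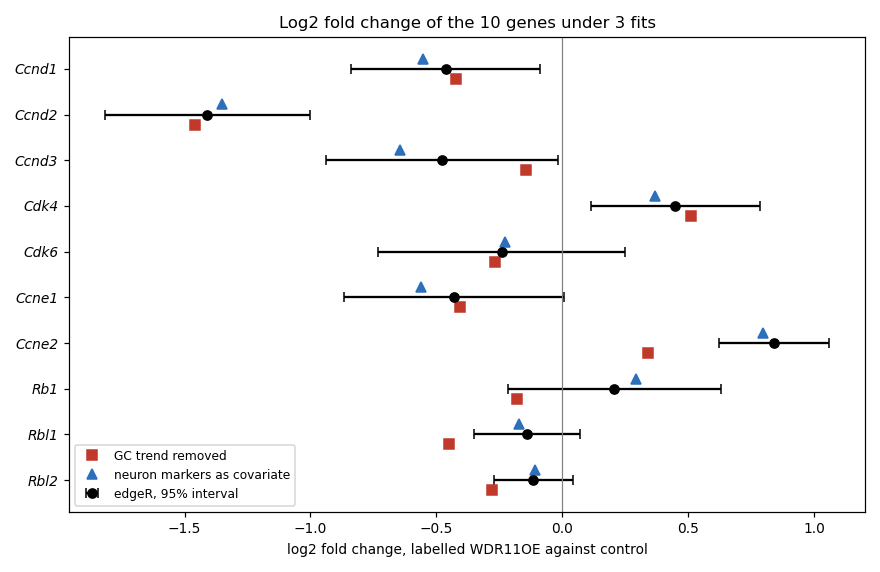
Log2 fold change of the 10 genes in tumors labelled WDR11OE against controls. Black points with bars are the edgeR values and their 95% intervals, red squares the values with the GC trend removed and blue triangles those with neuron marker level as a covariate. Ccnd2 stays near -1.4 in all 3 fits, whereas Ccne2 moves from 0.84 to 0.34 when the GC trend is removed.

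Several of these genes share exon bases with a gene on the opposite strand, and reads of such a pair cannot be told apart where strand was not counted. The counter's setting is not given, so whether such reads were counted for a gene or dropped is not known. The shared part was 18.6% of the Cdk4 exons with Tspan31, 17.4% of the Ccne2 exons with Ints8, 21.3% of the Ccnd1 exons with Oraov1 and 15.7% of the Ccnd3 exons with Bysl. Ints8 was itself called higher (log2 fold change 0.34 ± 0.105, edgeR adjusted p = 0.0398), and Tspan31 had a log2 fold change of 0.42 ± 0.167 (edgeR adjusted p = 0.0949). Bysl was called lower (-0.39 ± 0.106, edgeR adjusted p = 0.0282) and Oraov1 had 0.36 ± 0.131 (edgeR adjusted p = 0.0737). No other gene shared exon bases with Ccnd2.

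The level of cell type markers differed from tumor to tumor. Bulk counts do not show whether host cells or tumor cells made the marker transcripts. The summed level of 12 neuron markers was 492, 162 and 81.1 CPM in controls and 13.8, 31.6, 228 and 731 CPM in the labelled tumors, and none of the 12 was called. Labelled tumor 4, the richest in neuron markers, had the lowest Ccnd1, Ccnd3, Ccne1 and Cdk6 and the highest Rb1 of the 7 tumors. It also had the highest sum of astrocyte markers (984 CPM, beside 346 to 741 CPM in the others). Its sum of endothelial markers was the lowest (107 CPM). Control tumor 1, the next richest in neuron markers, had the highest Cdk6 (62.1 CPM) and the highest Ccnd2. With the neuron marker sum as a covariate, Ccnd1 (log2 fold change -0.55, edgeR adjusted p = 0.00409), Ccnd3 (-0.64, 0.00115) and Ccne1 (-0.56, 0.00998) were also called lower. Ccnd2, Cdk4 and Ccne2 remained called, and Rb1 was at 0.29 (edgeR adjusted p = 0.0681). Without labelled tumor 4, Ccnd3 was at -0.34 (edgeR adjusted p = 0.103) and Ccne1 at -0.29 (0.101).

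**Figure D4:**
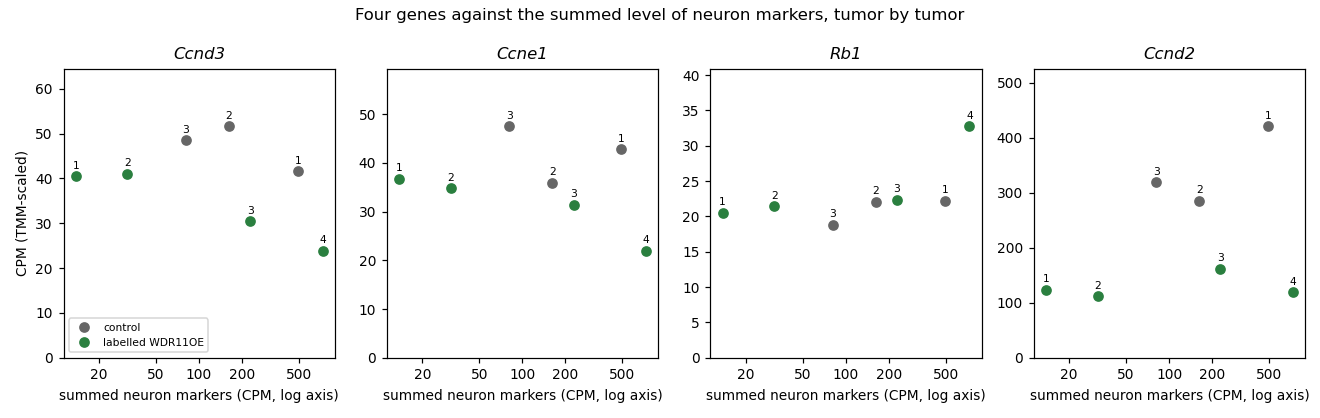
Level of Ccnd3, Ccne1, Rb1 and Ccnd2 (CPM, from 0) against the summed level of the neuron markers (CPM, log axis) in each tumor, grey for controls and green for tumors labelled WDR11OE. Labelled tumor 4, at 731 CPM of neuron markers, is lowest in Ccnd3 and Ccne1 and highest in Rb1, whereas Ccnd2 separates the groups over all 7 tumors.

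Muscle markers moved with the group. All 9 tested of 10 were called higher, their summed level was 3.15 to 5.84 CPM in controls and 46.6 to 140 CPM in the labelled tumors, and Mb, the myoglobin gene, was at 0 in every control. Of 8 endothelial markers, 3 were called lower (Cdh5, Flt1 and Esam, 37.5%), beside 15.8% lower and 18.1% higher over all genes. The other 5 were not called, and 2 of these had positive log2 fold changes (Pecam1, 0.12, and Tek, 0.02). The sum of the 8 was 164 to 210 CPM in controls and 107 to 141 CPM in the labelled tumors. Of 7 astrocyte markers, S100b was called higher, and none of 9 oligodendrocyte, 10 microglia and macrophage or 5 erythroid markers was called. The part of these cells in the values above was not tested. Of 9 markers of granule neuron progenitors, the labelled origin, none was called, Atoh1 had no count in any tumor and Barhl1 had 1, while Gli1, a hedgehog target, was at 564 CPM in the control mean.

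The INK4 and CIP/KIP inhibitors, which block CDK4 and CDK6 or cyclin E-CDK2, had 2 of 7 lower (28.6%) and none higher, beside 15.8% and 18.1% over all genes. Cdkn1a (p21) measured 11.9, 16.02 and 9.62 CPM in controls and 7.70, 9.03, 8.44 and 5.86 CPM in the labelled tumors, without overlap (log2 fold change -0.69 ± 0.223, edgeR adjusted p = 0.0483). Cdkn2b (p15) lay at 5.24 to 6.72 CPM in controls and 3.27 to 4.08 CPM in the labelled tumors, also without overlap (-0.61 ± 0.170, edgeR adjusted p = 0.0292). The tumors are null for Trp53, whose product is the best known activator of Cdkn1a.

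The other inhibitors did not pass the test. Cdkn1c (p57) ran from 124 to 152 CPM in controls and was lowest in labelled tumors 3 and 4, at 75.03 and 30.2 CPM, beside 127 and 114 CPM in the other two (log2 fold change -0.71, edgeR adjusted p = 0.246). Cdkn1b was at -0.04, Cdkn2a at -0.12 and Cdkn2d at 0.11. Cdkn2c, deleted in the mice from which the line came, still held reads at a mean of 16.2 CPM in controls and 21.6 CPM in the labelled tumors (0.42, edgeR adjusted p = 0.162), and a gene count does not say which exons they cover. The count of 2 lower inhibitors was 0 to 4 over the 20 alternatives. It was 0 without control tumor 2 or labelled tumors 1, 2 or 3, 1 without control tumor 1 or labelled tumor 4, and 4 with the neuron covariate, and without labelled tumor 4 there was 1 called higher.

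Pocket proteins hold some E2F and DP factors in check, whereas others, such as E2f6, act without them. The list of E2F and DP factors holds both kinds. Of 10, 7 were lower in the labelled tumors and none was higher, beside 15.8% lower over all genes, and their median log2 fold change was -0.42. The count lower was 5 to 8 over the 20 alternatives, and no member was higher in any. The list was chosen with earlier results known, so the count is a description.

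E2f4, a repressor-class factor that works with p107 and p130, measured 42.4, 53.4 and 51.2 CPM in controls and 22.3, 24.1, 24.1 and 21.0 CPM in the labelled tumors. All 4 labelled tumors were near 1 level, far below the controls (log2 fold change -1.10 ± 0.101, edgeR adjusted p = 0.000989). E2f6, an E2F that represses without pocket proteins, was lower by a log2 fold change of -0.65 (edgeR adjusted p = 0.00132). The atypical repressors E2f7 and E2f8 were at -0.60 (edgeR adjusted p = 0.00598) and -0.44 (0.00911).

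The activators E2f1 and E2f3 were lower at -0.35 (edgeR adjusted p = 0.0277) and -0.40 (0.00717). E2f2, the other activator, ran from 15.5 to 20.6 CPM in controls and from 13.0 to 22.9 CPM in the labelled tumors (log2 fold change -0.02, edgeR adjusted p = 0.944). Tfdp2, a DP partner, was lower at -0.49 (edgeR adjusted p = 0.0201), and Tfdp1 at -0.16 (0.328) and E2f5 at 0.17 (0.163) did not pass.

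Genes that E2F is known to drive in S phase had 10 of 22 higher (45.5%) and 1 lower (4.55%), beside 18.1% and 15.8% over all genes. Their median log2 fold change was 0.17, beside 0.08 over all genes. Pola1, the DNA polymerase alpha subunit, was at 114 to 135 CPM in controls and 196 to 229 CPM in the labelled tumors (0.84, edgeR adjusted p = 0.00120), and Pcna, the polymerase clamp, at 123 to 177 and 226 to 271 CPM (0.79, 0.00474). Cdt1, the licensing factor, was lower in each labelled tumor (30.3 to 48.4 against 70.3 to 79.6 CPM, -0.87, edgeR adjusted p = 0.00467). Over the 20 alternatives the count higher ran from 3 to 11 and the count lower from 1 to 3. The 10 higher were 5 without control tumor 1 or 2, 3 without labelled tumor 1 or 2, 6 without labelled tumor 3, and 5 with DESeq2 size factors in edgeR, with no filter or with the GC trend removed. The 1 lower became 2 without control tumor 1, with DESeq2, with library size scaling and with the GC trend removed. The number higher over all genes also fell when a tumor was left out, with no filter and with the GC trend removed. A fall in this list is therefore not shown to be particular to it.

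Of the MuvB core and its DREAM partners, which hold cell cycle genes silent with p130 and later switch on mitotic genes, 3 of 7 were lower (42.9%) and 2 higher (28.6%), beside 15.8% and 18.1% over all genes. Foxm1, the mitotic activator, was at 59.5, 63.5 and 70 CPM in controls and 28.8 to 37.01 CPM in the labelled tumors (log2 fold change -0.96, edgeR adjusted p = 0.00112), and Lin37 was at -0.54 (0.0166). Lin52 (0.56, 0.0342) and Lin9 (0.30, 0.0338) were the 2 higher, and this count held in 3 of the 20 alternatives. It was 0 without control tumor 1 or 2 or labelled tumor 1, with no filter and with the GC or length trend removed, and 1 without control tumor 3 or labelled tumors 2 or 3 and with limma-voom, DESeq2, library size scaling, DESeq2 size factors in edgeR or the filter of 1 CPM. The count lower was 1 without control tumor 2 or labelled tumor 1 and with the GC trend removed.

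Among 19 genes of G2 and M phase, 6 were higher (31.6%) and 2 lower (10.5%), beside 18.1% and 15.8% over all genes. Top2a, the topoisomerase of chromosome condensation (log2 fold change 0.70, edgeR adjusted p = 0.00593), and Nusap1, a spindle protein (0.68, 0.00621), led those that rose, and Plk1, a mitotic kinase (-0.72, 0.0199), and Ube2c, an anaphase ubiquitin conjugase (-0.65, 0.0413), were the 2 that fell. The 2 lower calls became 0 without control tumor 3 or labelled tumor 1 and 1 without labelled tumors 2, 3 or 4, and the 6 higher became 3 without labelled tumor 1. With the GC trend removed 1 was higher and none lower, and with the neuron covariate 5 were lower.

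Cdk2, the kinase of cyclin E, had a log2 fold change of -0.08 (edgeR adjusted p = 0.529), and 2 of the 3 parts of the CDK-activating kinase were higher. These were Ccnh (25.5 to 27.2 CPM in controls against 39.6 to 44.5 CPM in the labelled tumors, 0.71, edgeR adjusted p = 0.00106) and Mnat1 (0.66, 0.00252), and Cdk7 was at 0.11 (0.164). In this list 2 of 6 were higher (33.3%) and none lower, beside 18.1% and 15.8% over all genes. With the GC trend removed none was higher, and the count lower was 1 without control tumor 1, with DESeq2, with library size scaling or with the length trend removed and 2 with the neuron covariate. Of 13 genes of cyclin turnover, 3 were lower (23.1%) and 2 higher (15.4%), near the 15.8% and 18.1% over all genes. Gsk3b, the kinase that marks cyclin D1 for destruction, was lower (-0.83, edgeR adjusted p = 0.00345), as was Fbxo31 (-0.51, 0.00574), and the SCF ligase parts Skp1a (0.61, 0.00332) and Cul1 (0.59, 0.00156) were higher.

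Cyclins and kinases of transcription had 4 of 11 higher (36.4%) and 2 lower (18.2%), beside 18.1% and 15.8% over all genes. Ccnl1 (0.89, edgeR adjusted p = 0.00105) and Ccnc (0.72, 0.00105) led the first, and Ccnk (-1.07, 0.00363) and Cdk9 (-0.84, 0.00145) were the second. With the GC trend removed the number higher was 2.

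Transcription factors and signalling genes known to act upstream of D cyclin genes had 6 of 13 lower (46.2%) and none higher, beside 15.8% and 18.1% over all genes. Their median log2 fold change was -0.54, beside 0.08 over all genes. The list holds both activators and Tcf7l1, which is known mainly as a repressor of WNT target genes. Tcf7l1 was at 34.1 to 38.6 CPM in controls and 6.84 to 10.2 CPM in the labelled tumors (log2 fold change -2.15 ± 0.149, edgeR adjusted p = 0.000858), and Gli2, a hedgehog effector, at 74.8 to 131 and 24.4 to 41.4 CPM (-1.70 ± 0.265, 0.00326). Notch1 (-0.64, edgeR adjusted p = 0.0155) and Jun (-0.59, 0.0190) were lower by less. The 6 lower also included Tcf7l2, another TCF factor (-1.57 ± 0.186, edgeR adjusted p = 0.00138). Myc, named here after its values were seen because the line was made with it, measured 1109, 821 and 812 CPM in controls and 390, 431, 278 and 289 CPM in the labelled tumors (-1.40 ± 0.197, edgeR adjusted p = 0.00227). The row does not separate the retroviral Myc from the cell's own.

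**Figure D5:**
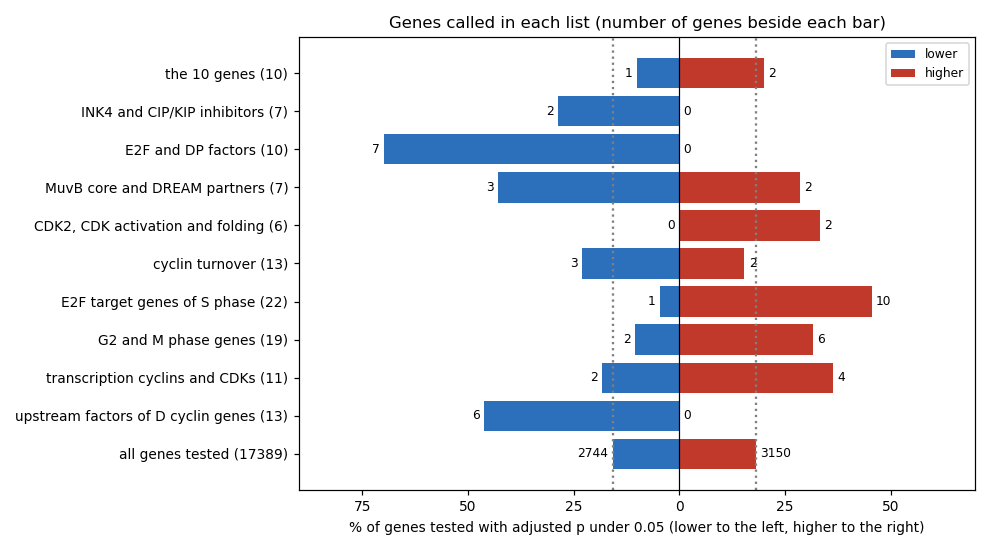
Percent of genes called lower (blue, to the left) and higher (red, to the right) in the 10 genes and in each related list, with the number of genes beside each bar, the list size in brackets and dotted lines at the shares over all genes tested (15.8% and 18.1%). E2F and DP factors have 7 of 10 lower and none higher, and E2F target genes of S phase have 10 of 22 higher and 1 lower.

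For each D cyclin the genes with the most similar profile over the 7 tumors were found by the root mean square difference of centred log2 CPM. For Ccnd2 these were Tmem131 (0.0625), Ttc28 (0.0788) and Bicc1 (0.0900). For Ccnd1 they were Car14 (0.0546), Dhx16 (0.0601) and Lsm11 (0.0668), and for Ccnd3 Cmtm7 (0.0749), Lamc3 (0.0788) and Col4a1 (0.0904). A value of 0 would mean the same profile, and the points share libraries.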

How the data were processed

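RNA-seq was run on 7 tumors. Per the labels, the authors used the TruSeq RNA Library Preparation Kit v2, which does not mark strand. The study's methods instead call the RNA sequencing stranded and name no library kit. The submitters' processing notes name CASAVA 1.7, STAR, BWA, HTSeq and the build mm9. The authors deposited raw read counts per gene, with no normalization. Counts were grouped by label (control, n = 3; WDR11OE, n = 4), and replicate numbers follow accession order.

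Genes were filtered with filterByExpr, scaled by TMM and tested with edgeR 4.0.16 (R 4.3.3) by the two-sided quasi-likelihood test across 17389 genes with Benjamini-Hochberg adjustment, called at 0.05. CPM used TMM library sizes. RPKM used exon unions of GENCODE vM1 on NCBIM37 (mm9), in which 33606 of 34592 genes were matched. Log2 ratios used a prior count of 2. Single values were compared by exact two-sided permutation over 35 splits. A count of 3 was worth 0.0329 to 0.0924 CPM, which covers counting error only. No 2 libraries of a group agreed within counting noise (chi-square per degree of freedom 22.65 to 245.2). Each library is a tumor, but nothing states separate infected cultures, so p-values measure the spread between tumors. Labelled tumors 1 and 2 were the closest pair (chi-square per degree of freedom 22.65, Pearson correlation of log2 CPM 0.9932). Their titles share a number, and whether they are independent is not known. Scripts were tested on simulated data.

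The genes, lists and tests were chosen with earlier results of these data known. Named were all 10 genes, all inhibitors, E2F and DP factors, in other lists the 2 lowest and 2 highest among called genes, and for each D cyclin the 3 most similar genes. Myc and Tcf7l2 were named outside this rule, after their values were seen. Alternatives were limma-voom (limma 3.58.1), DESeq2 1.42.0, other scalings and filters, GC content and length trends, a neuron marker covariate, thinning, summing labelled tumors 1 and 2 (whose titles share a number) and leaving out each tumor.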

Additional observations from a re-analysis of the deposited data

How the results depend on the processing

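Ccnd2 was called lower in all 20 alternative fits (log2 fold change -1.54 to -1.24), Ccne2 was called higher in 18 and Cdk4 in 10. Of the 10 genes, the number lower (1) was 3 with DESeq2, 2 with library size scaling, 3 with the GC trend removed and 4 with the neuron covariate, and 1 to 2 when a tumor was left out. The number higher (2) was 1 with DESeq2 size factors in edgeR, no filter, a filter of 1 CPM in 3 tumors, the GC, length or both trends removed, or labelled tumors 1 and 2 summed, and 1 to 2 when a tumor was left out. Among all genes the number higher (3150) was 2093 with no filter, 1942 with the GC trend removed, 1850 with both trends, 1629 with labelled tumors 1 and 2 summed, and 1560 (without labelled tumor 1) to 2986 when a tumor was left out. The counts of list genes called under an alternative were not set beside the share over all genes in the same fit. A change in such a count need not be particular to its list. Of all calls 53.4% were higher, beside 46.8% with DESeq2 size factors, 57.9% with upper quartile scaling and 43.8% with labelled tumors 1 and 2 summed. The median log2 fold change of all genes, 0.08, was 0.04 with DESeq2 or its size factors, 0.12 with upper quartile scaling, 0.14 with no filter and -0.01 without labelled tumor 4. Reversed in sign, all without a call, were Rb1 with the GC trend removed (-0.1783) or with both trends (-0.0092) and Cdk6 without control tumor 1 (0.0336, the highest when a tumor was left out, the lowest being -0.3863 without control tumor 2). The cause was not tested. For the pair ratios the adjustment over 8 pairs left little room to pass at this number of tumors, so the alternatives say nothing of their stability. No paired analysis was possible because replicate numbers only follow accession order.

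Depth does not limit the 10 genes, all of which lie far above the value of 3 counts, but 3 against 4 tumors of 1 line, library series that follow the group, unsorted cells and a human WDR11 row that does not separate the groups limit what the comparison can be ascribed to.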
